A study of Rattus norvegicus with 22 samples.

Results

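Cholinergic transmission genes make, pack, recapture, break down or sense acetylcholine, and 10 of them were described in the ventral cervical spinal cord of rats with and without gonads. They were chosen by symbol from the deposited table of read counts: Chat, Slc5a7, Slc18a3, Ache, Chrm2, Chrm3, Chrna3, Chrna4, Chrna7 and Chrnb2. These are 10 of 32883 genes in the table, and all 10 passed the filter on low counts in each comparison. The rats were Sprague-Dawley animals from Envigo, 3 to 4 months old, and the females were virgin. GDX males had both testes removed and OVX females both ovaries, under isoflurane with buprenorphine SR given before surgery, and tissue was taken 2 weeks later after perfusion with saline. The controls were intact rats of the same age, and no sham operation is described, so the effects of surgery and of losing the gonads cannot be told apart. The dorsal part of segments C3 to C6 was discarded and RNA of the ventral part was sequenced, with 1 library per rat from 5 GDX and 5 intact males and from 6 OVX and 6 intact females. Rats carry the numbers of the study, so that intact males are rats 1, 2, 3, 5 and 6 and GDX males are rats 1, 2, 4, 5 and 6.

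Between 12371756 and 17571887 reads were counted per library. Levels are given as CPM, the read count scaled to a common library size with edgeR's TMM factors, and differences as log2 fold changes with their standard error (SE). The libraries fall into 2 classes of average fragment size, near 162 bp (short) in 15 libraries and near 244 bp (long) in 7. All GDX and OVX libraries are short, as are intact males 2 and 5 and intact females 1 and 4, while the other 7 intact rats have long libraries. The fragment class therefore differs between each gonadectomised group and its controls. Among the 12 motor neuron markers checked, Mmp9 was at 0 in some libraries and the other 11 were counted in each of the 22 libraries. A list of 8 dorsal horn genes summed to between 25.8 and 39.1 CPM per library, and Tac3, Npy and Grp were at 0 in at least 1 library.

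In the ventral horn, acetylcholine is the transmitter that motor neurons release onto muscle and, through collaterals, onto Renshaw cells. Motor neurons also receive it, at large C-bouton synapses from cholinergic interneurons near the central canal, where the M2 muscarinic receptor sits in the postsynaptic membrane. Choline acetyltransferase makes acetylcholine, a vesicular transporter loads it, acetylcholinesterase splits it in the cleft, and a high-affinity choline transporter brings the choline back into the terminal.

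The genes of the first steps share a setting that their expression values do not show. Slc18a3, the gene of the vesicular transporter, lies within the span of Chat on the same strand, with 602 bases between the starts of the genes in RefSeq's annotation of the GRCr8 build. The counts were made on Rnor_6.0, and the strand and overlap settings of the counting are not stated, so reads from shared sequence cannot be divided between Chat and Slc18a3. The 250 bases before the start of Chat, Slc18a3 and Slc5a7 are printed because these are the genes of supply, of which Chat and Slc18a3 had an r of 0.908 across rats. The sequences are RefSeq's, from GRCr8, at chr16:7723417-7723666, chr16:7722815-7723064 and chr9:7953510-7953759, all on the minus strand and written 5′ to 3′, with the matches to the searched motifs in capitals.
Chat: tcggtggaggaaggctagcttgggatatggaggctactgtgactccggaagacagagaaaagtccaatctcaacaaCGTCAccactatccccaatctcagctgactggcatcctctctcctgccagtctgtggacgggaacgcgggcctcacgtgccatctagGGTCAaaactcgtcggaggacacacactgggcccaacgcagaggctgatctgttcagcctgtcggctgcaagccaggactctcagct
Slc18a3: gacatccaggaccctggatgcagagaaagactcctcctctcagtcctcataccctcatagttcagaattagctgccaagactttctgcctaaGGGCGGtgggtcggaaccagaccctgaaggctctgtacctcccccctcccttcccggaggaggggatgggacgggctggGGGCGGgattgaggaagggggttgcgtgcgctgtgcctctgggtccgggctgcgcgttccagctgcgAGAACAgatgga
Slc5a7: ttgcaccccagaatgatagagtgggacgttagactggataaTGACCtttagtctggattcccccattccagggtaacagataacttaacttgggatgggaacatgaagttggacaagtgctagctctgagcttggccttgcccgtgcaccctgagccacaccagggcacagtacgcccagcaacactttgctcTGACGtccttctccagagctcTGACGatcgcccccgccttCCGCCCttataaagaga
Each of 4 motifs was searched on both strands, and a match on the other strand is printed as its reverse complement. They were GGTCA, a core of estrogen response elements, AGAACA, a core of androgen and glucocorticoid response elements, TGACG, a core of cyclic AMP response elements, and the GC box GGGCGG. Promoters were found for 10 of 10 members. GGTCA was in 5 of them, against 35.4% of the 33469 promoters of the same length. AGAACA was in 1 of 10, that of Slc18a3, against 17.5% of all promoters. TGACG was in 4 of 10, against 18.2%, and GGGCGG was in 9 of 10, against 30.5%. The windows of the members hold from 53.2% (Slc5a7) to 75.6% (Ache) G and C. The shares over all promoters are not matched for this content, so no enrichment is read from them. Chat is the member without a GC box in this window. A match describes the letters and is no evidence of binding.

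Removal of the testes was compared with intact males to find which steps of cholinergic transmission differ without testicular hormones. 5 of 10 members fell in GDX males (edgeR, adjusted p under 0.1): Slc18a3, which loads acetylcholine into vesicles, Ache, which hydrolyses it, and the nicotinic receptor subunits Chrna4, Chrna7 and Chrnb2. Of all 14931 genes tested, 13.4% were called in either direction and 6.58% were called lower. The share in either direction ran from 7.99% without GDX male 5, where 2 members were called, to 16.2% without GDX male 1, where 6 were. At an unadjusted p under 0.05 there were 7 members, against 23.8% of all genes. DESeq2 called 6 members, the same 5 and Chat, and 13.8% of the 15220 genes to which it gave an adjusted p. Counting direction alone, 9 members were lower and Slc5a7 was higher, and the median log2 fold change of the members was −0.34, against 0.00 over all genes. In whole-tissue RNA, fewer cells that express a gene and less RNA per cell cannot be told apart.

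**Figure D1:**
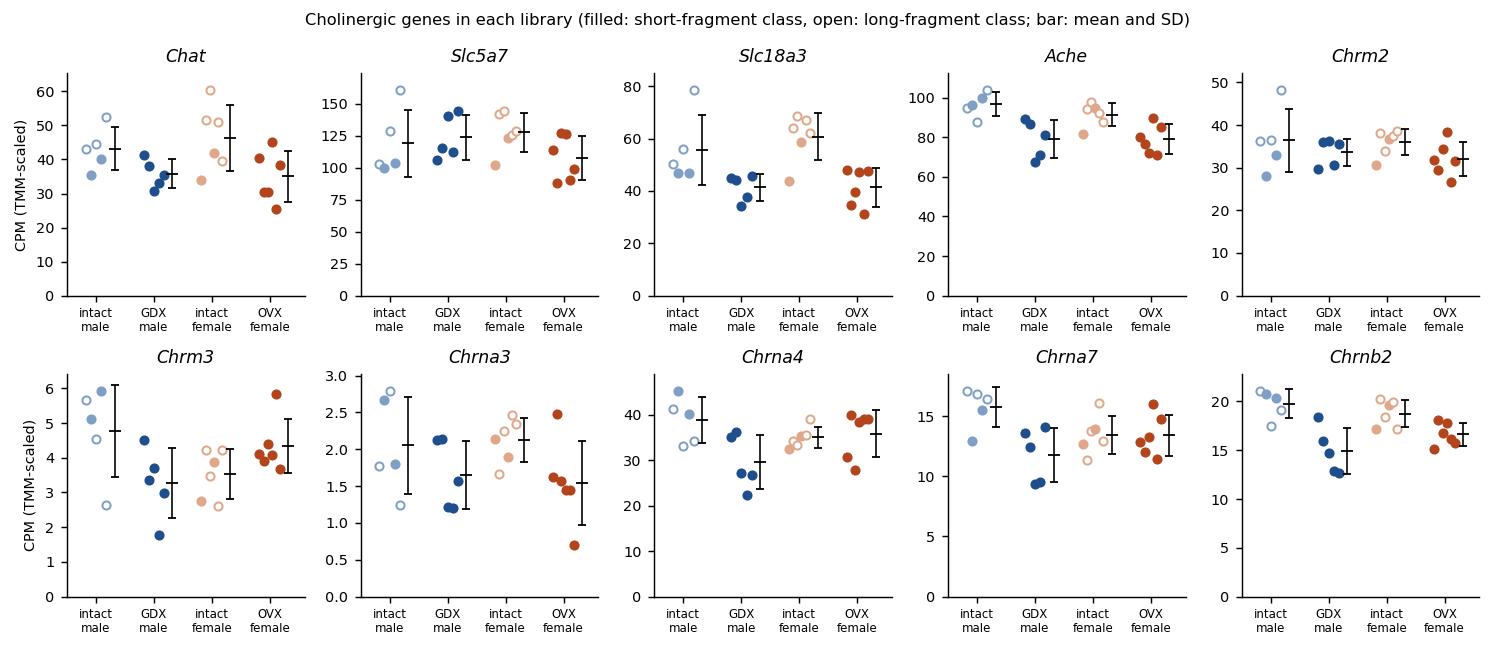
Level of each member (CPM, vertical axis, from 0) in each of the 22 rats by group, with filled and open points for the fragment classes and bars for the group mean and SD. GDX males are all below intact males for Slc18a3, from 34.1 to 45.8 against 46.7 to 78.7 CPM, and the groups overlap for the other 9 members. The share of all genes whose groups do not overlap was not computed, so no conclusion is drawn from this count.

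Among the genes of supply, Chat (ENSRNOG00000025012) encodes the enzyme that makes acetylcholine. Its level in intact males 1, 2, 3, 5 and 6 was 43.0, 35.4, 44.6, 40.0 and 52.5 CPM, and in GDX males 1, 2, 4, 5 and 6 it was 41.4, 38.2, 30.6, 33.2 and 35.6 CPM. Intact male 6 was highest, GDX males 4 and 5 were lowest, and the groups overlapped. The means were 43.1 ± 6.32 (SD, n = 5) and 35.8 ± 4.21 CPM (SD, n = 5), a log2 difference of −0.27 (SE 0.10) that did not pass the test (edgeR, adjusted p = 0.110). Chat was called without intact male 2 (adjusted p = 0.0485, the lowest of its 20 alternatives, whose highest was 0.977) and without GDX male 1.

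Slc18a3 (ENSRNOG00000062141) encodes the vesicular acetylcholine transporter. It stood at 50.4, 46.8, 56.1, 46.7 and 78.7 CPM in intact males 1, 2, 3, 5 and 6 and at 45.0, 44.1, 34.1, 37.7 and 45.8 CPM in GDX males 1, 2, 4, 5 and 6. Intact male 6 stood well above the rest, and no GDX male reached the lowest intact male, although rats 5 (intact) and 6 (GDX) lay less than 1 CPM apart. The fall was −0.43 (SE 0.13; edgeR, adjusted p = 0.0542), a fold of 0.742. Slc18a3 was not called without GDX male 4 (adjusted p = 0.129) or GDX male 5. The call was also lost with the fragment class as a term or in short libraries only (−0.18), with the meninges sum as a term (−0.05) and among shared rat numbers with the block (−0.34) or without it (−0.37), and the estimate was −0.27 without intact male 6. Over its 20 alternatives the adjusted p ran from 0.0201 to 0.972.

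Slc5a7 (ENSRNOG00000010597), the choline transporter of cholinergic terminals, was measured at 103, 99.6, 129, 103 and 161 CPM in intact males 1, 2, 3, 5 and 6. The GDX males 1, 2, 4, 5 and 6 had 106, 115, 140.4, 112 and 144 CPM. Both ranges lay over each other, with the highest value in intact male 6. The log2 difference was 0.05 (SE 0.12; edgeR, adjusted p = 0.840), and it ran from −0.01 without GDX male 6 to 0.19 without intact male 6.

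Acetylcholinesterase (Ache, ENSRNOG00000050841) ends the signal by hydrolysing acetylcholine. Intact males 1, 2, 3, 5 and 6 had 94.9, 96.6, 87.9, 100.02 and 104 CPM of it, and GDX males 1, 2, 4, 5 and 6 had 89.2, 86.7, 67.4, 71.3 and 81.1 CPM. Intact male 3 fell just under GDX male 1, and apart from that pair each GDX male was below each intact male. Ache fell by 0.29 on the log2 scale (SE 0.07; edgeR, adjusted p = 0.0257), from a mean of 96.7 ± 6.05 to 79.2 ± 9.51 CPM (SD, n = 5 each). Ache was called in all 10 fits that left out 1 rat. The call was lost with the fragment class as a term or in short libraries only, at −0.31, and with the meninges sum as a term, at −0.04, and the adjusted p ran from 0.00398 to 0.958 over the 20 alternatives.

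The muscarinic receptors did not pass the test. Chrm2 (ENSRNOG00000046972), the M2 receptor of C-bouton synapses, ranged from 28.0 to 48.3 CPM in intact males and from 29.6 to 36.2 CPM in GDX males. Its log2 difference was −0.12 (SE 0.11; edgeR, adjusted p = 0.582), with intact male 6 well above the other males, and it was 0.01 without that rat. Chrm3 (ENSRNOG00000049410), the Gq-coupled M3 receptor, was counted 40 to 96 times in intact males and 25 to 68 times in GDX males. At 4.77 ± 1.32 against 3.27 ± 1.01 CPM (SD, n = 5 each), the Chrm3 difference was −0.54 (SE 0.25; edgeR, adjusted p = 0.194). Intact male 6 had the lowest Chrm3 level of its group, 2.62 CPM, and without it Chrm3 was called at −0.70 (adjusted p = 0.0732, the lowest of 20 alternatives, whose highest was 0.876).

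Of the nicotinic subunits, Chrnb2 and Chrna4 together form the common high-affinity receptor of the brain, Chrna7 forms homomeric receptors with high calcium permeability, and Chrna3 is best known from autonomic ganglia. Chrnb2 (ENSRNOG00000020778) was at 21.1, 20.8, 17.5, 20.3 and 19.1 CPM in intact males 1, 2, 3, 5 and 6, and at 18.4, 15.9, 14.7, 12.8 and 12.7 CPM in GDX males 1, 2, 4, 5 and 6. GDX male 1 overlapped the intact males through intact male 3, and the other GDX males lay below all intact males. It fell by 0.41 on the log2 scale (SE 0.10; edgeR, adjusted p = 0.0212), and it was called in all 10 fits that left out 1 rat. The Chrnb2 call was lost in short libraries only, at −0.46, and with the meninges sum as a term, at −0.18, and the adjusted p ran from 0.00422 to 0.854 over the 20 alternatives.

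Chrna4 (ENSRNOG00000011202) had 41.2, 45.4, 33.2, 40.2 and 34.2 CPM in intact males 1, 2, 3, 5 and 6, against 35.1, 36.3, 27.2, 22.3 and 26.7 CPM in GDX males 1, 2, 4, 5 and 6. GDX males 1 and 2 reached the lower intact males, and GDX males 4, 5 and 6 did not. The fall was −0.39 (SE 0.12; edgeR, adjusted p = 0.0610), and it was called in 4 of 10 fits that left out 1 rat. The call was lost without intact male 1, 2 or 5 or GDX male 4, 5 or 6, while the estimate ran from −0.48 to −0.31 over the rats left out. It was also lost with RIN (the RNA integrity number) as a term (−0.32), in short libraries only (−0.53), among shared rat numbers without the block (−0.41) and with the meninges sum as a term, where the estimate shrank to −0.17. Over the 20 alternatives the adjusted p of Chrna4 ran from 0.0211 to 0.888.

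Chrna7 (ENSRNOG00000010853) was measured at 17.1, 12.9, 16.8, 15.5 and 16.5 CPM in intact males 1, 2, 3, 5 and 6 and at 13.6, 12.5, 9.37, 9.5 and 14.1 CPM in GDX males 1, 2, 4, 5 and 6. Intact male 2 was the low intact rat, below GDX males 1 and 6. The fall was −0.42 (SE 0.12; edgeR, adjusted p = 0.0453), and the call was lost without intact male 1, GDX male 4 or GDX male 5. It was also lost with RIN as a term (−0.42), among shared rat numbers with the block (−0.33) or without it (−0.32), with the fragment class as a term or in short libraries only (−0.27) and with the meninges sum as a term (−0.26). The adjusted p ran from 0.0184 to 0.844 over the 20 alternatives. Chrna3 (ENSRNOG00000013829) was sparse, with 17 to 37 counts per male library, and its difference was −0.30 (SE 0.26; edgeR, adjusted p = 0.537). The Chrna3 estimate ran from −0.44 without intact male 6 to −0.17 without intact male 3. Among the 10 males, GDX males 4, 5 and 6 had the lowest values of Chrna4 and Chrnb2, and GDX males 4 and 5 those of Chrna7, Ache and Chat. GDX males 4, 5 and 6 also had the lowest TMM factors of the males, 0.948, 0.964 and 0.959. Their shares of counts in the most counted gene, 17.9%, 16.7% and 15.9%, were the largest of the males. The part of this library trait in the member values was not tested.

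**Figure D2:**
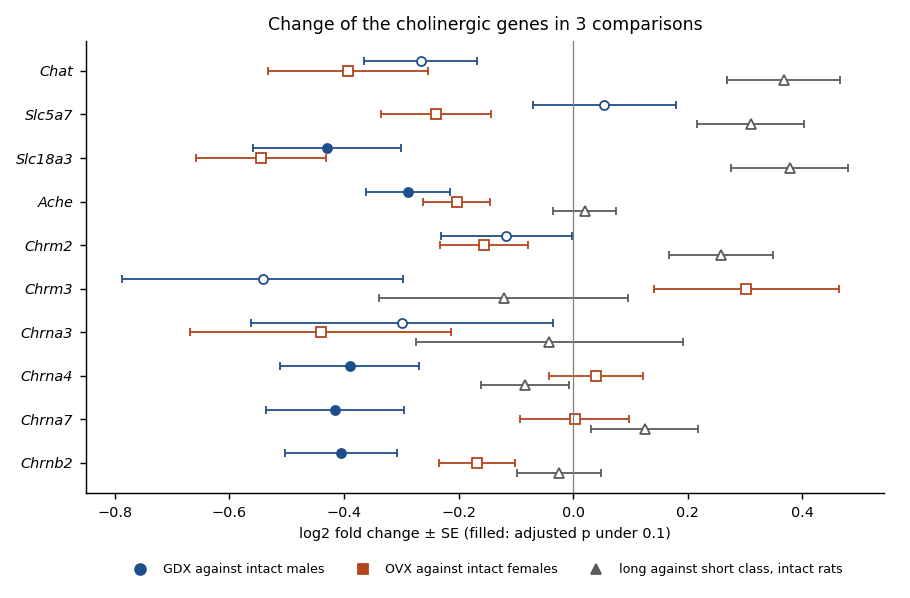
Log2 fold change of each member (horizontal axis) with its SE as a bar, for GDX against intact males, OVX against intact females and long against short libraries of intact rats, with filled symbols where edgeR's adjusted p was under 0.1. In GDX males 5 symbols are filled, from −0.43 to −0.29, and the symbols of the other comparisons are open, with Slc18a3 at −0.54 in OVX females.

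Removal of the ovaries was compared with intact females in the same way. Slc18a3, Chrna3 and Chat had the lowest ratios of OVX to intact females, and Chrna4 and Chrna7 had nearly the same mean in both groups. 0 of 10 members passed the edgeR test, against 0.0335% of all 14910 genes tested. At an unadjusted p under 0.05 there were 5 members, against 10.2% of all genes, and DESeq2 called 2, Slc18a3 and Ache, and 1.20% of all genes. The edgeR share rests on 5 genes, and leaving out 1 rat gave from 0 to 113. Lower values were found for 7 members and higher values for 3, and the median log2 fold change was −0.19, against 0.00 over all genes.

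Slc18a3 in intact females ran from 43.6 to 68.5 CPM with a median of 63.1, and in OVX females from 31.2 to 48.1 CPM with a median of 43.3. Intact female 1, a short library, was the single intact female within the range of the OVX females. The difference of −0.54 (SE 0.11) ranked 17 among all genes by p and had an adjusted p of 0.149 with edgeR. Slc18a3 was called when intact female 1 (adjusted p = 0.0384) or OVX female 4 was left out, and its adjusted p ran from 0.00579 to 0.821 over its 22 alternatives. Chat ran from 34.0 to 60.5 CPM in intact females (median 46.4) and from 25.3 to 45.3 CPM in OVX females (median 34.4). Both Chat groups overlapped widely, and the difference was −0.39 (SE 0.14; edgeR, adjusted p = 0.334).

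Slc5a7 was at 127 ± 15.1 CPM in intact females and 107 ± 17.5 CPM in OVX females (SD, n = 6 each), a difference of −0.24 (SE 0.10; edgeR, adjusted p = 0.407). For Ache, intact females ran from 81.8 to 98.1 CPM (median 93.3) and OVX females from 71.0 to 89.8 CPM (median 78.2), with OVX females 4 and 6 inside the intact range. The Ache difference was −0.20 (SE 0.06; edgeR, adjusted p = 0.247). Chrnb2 had a difference of −0.17 (SE 0.07; edgeR, adjusted p = 0.400), from 18.8 ± 1.40 to 16.6 ± 1.18 CPM (SD, n = 6 each). Chrna4 stood at 35.1 ± 2.32 and 35.9 ± 5.22 CPM, and Chrna7 at 13.5 ± 1.60 and 13.4 ± 1.72 CPM (SD, n = 6 each), differences of 0.04 and 0.00. Chrm2 differed by −0.16, Chrm3 by 0.30 and Chrna3, at 9 to 40 counts per OVX library, by −0.44, all with adjusted p of 0.516 or more.

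The responses of the sexes were compared directly, as the difference of the GDX and OVX log2 fold changes over all 22 rats. 0 of 10 members passed (edgeR), against 0.116% of 15562 genes, or 18 genes, a count that ran from 1 without GDX male 5 to 275 without GDX male 1. There were 3 members at an unadjusted p under 0.05, against 11.6%, and 0 were called by DESeq2, against 1.63% of all genes. The difference was −0.84 (SE 0.30) for Chrm3, −0.43 (SE 0.16) for Chrna4 and −0.41 (SE 0.16) for Chrna7, with adjusted p of 0.250, 0.267 and 0.289. For Slc18a3 it was 0.12, for Chat 0.13 and for Ache −0.08. With 1 rat left out these ran from 0.05 to 0.28, from 0.04 to 0.22 and from −0.13 to −0.03. That Chrna4 and Chrna7 were called in males and not in females was therefore not shown to be a difference between the sexes.

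Intact males and intact females were compared to describe sex in the presence of the gonads. 0 of 10 members passed (edgeR), against 4.01% of 14937 genes, and DESeq2 called 0, against 5.15%. At edgeR's unadjusted p under 0.05 there were 2, against 15.5%. The 2 were Chrna7, 0.23 higher in males (SE 0.09; adjusted p = 0.236), and Chrm3, 0.44 higher (SE 0.20; adjusted p = 0.309). Chat, Slc18a3 and Slc5a7 differed by −0.10, −0.12 and −0.10. With 1 rat left out these ran from −0.18 to −0.01, from −0.28 to −0.06 and from −0.23 to −0.04, each lowest without intact male 6. GDX males against OVX females likewise gave 0 of 10 (edgeR), against 0.232% of 15084 genes, with 1 member, Chrna4, at an unadjusted p under 0.05, against 9.37%. DESeq2 called 0, against 0.838% of all genes. Chrna4 was 0.27 lower in GDX males on the log2 scale, written −0.27 (SE 0.12; adjusted p = 0.515), and Slc18a3, Ache and Chat lay within 0.03 of OVX females. With 1 rat left out, Slc18a3 ran from −0.06 to 0.06, Ache from −0.05 to 0.05 and Chat from −0.05 to 0.12.

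Ordered by group mean, Chat, Slc18a3 and Chrna3 had the same sequence: intact females, intact males, GDX males and OVX females. For Chat and Slc18a3 the step from intact males to GDX males was larger than the SD of either group, and the steps within the intact and within the gonadectomised rats were smaller. Ache, Chrna7 and Chrnb2 ran from intact males through intact females and OVX females to GDX males. Of their neighbours, intact and OVX females stood apart beyond the SD for Ache and Chrnb2, and intact males and intact females for Chrna7. The step between GDX males and OVX females was 0.0025 CPM for Ache, against an SD of 9.51 CPM. For Slc18a3 it was 0.0081 CPM, against an SD of 7.35 CPM, so the order of these groups is not settled for either gene. Chrna4 and Chrm3 ran from intact males through OVX females and intact females to GDX males, with 1 step beyond the SD, between OVX and intact females for Chrm3, which was within the SD without OVX female 5 (0.502 CPM, against an SD of 0.714). Neighbouring groups of Slc5a7, Chrm2 and Chrna3 did not differ beyond their SD.

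The fragment class was described among intact rats alone, with sex as a term, because both classes occur there. 0 of 10 members passed the edgeR test, against 0.00669% of 14937 genes. The largest estimates, long against short, were 0.38 (SE 0.10) for Slc18a3, 0.37 (SE 0.10) for Chat, 0.31 (SE 0.09) for Slc5a7 and 0.26 (SE 0.09) for Chrm2, with adjusted p of 0.363, 0.355, 0.411 and 0.506 for these 4. The 4 are the members at an unadjusted p under 0.05, against 7.71% of all genes, and DESeq2 called Chat and Slc18a3, where it called 0.373% of all genes. Without the filter on low counts edgeR called all 4 (adjusted p from 0.00199 to 0.0977), and 0.891% of all genes (210 genes). Chat averaged 37.8 ± 3.68 CPM in the 4 short intact libraries and 49.0 ± 7.08 CPM in the 7 long ones, and Slc18a3 averaged 49.0 ± 6.65 and 63.9 ± 9.10 CPM (SD). Ache, at 93.3 ± 7.94 and 94.2 ± 5.71 CPM, differed by 0.02, Chrnb2 by −0.03 and Chrna4 by −0.08. Chrna7 was at 0.13, Chrm3 at −0.12 and Chrna3 at −0.04. With 1 rat left out, Ache ran from −0.04 to 0.05, Chrnb2 from −0.08 to 0.01 and Chrna4 from −0.15 to −0.02. Likewise, Chrna7 ran from 0.06 to 0.18, Chrm3 from −0.27 to 0.02 and Chrna3 from −0.17 to 0.10.

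Since all GDX libraries are short, a fit with the class as a term and a fit of short libraries alone both compare the 5 GDX males with the 2 short intact males, and are not separate evidence. With the class as a term the GDX estimate of Slc18a3 was −0.18, that of Chat −0.07 and that of Slc5a7 0.28, and that of Chrm2 turned from −0.12 to 0.14. In GDX males the estimates with the class as a term were −0.31 for Ache, −0.53 for Chrna4 and −0.46 for Chrnb2, as large as without it or larger, and −0.27 for Chrna7. Of the 5 calls, Chrna4 and Chrnb2 passed with the class as a term and 0 passed in short libraries alone, by the edgeR test. These fits called 5.33% and 2.83% of all genes. At an unadjusted p under 0.05 there were 4 members with the class as a term, against 19.0% of all genes, and 5 in short libraries alone, against 17.8%. In OVX females the estimates with the class as a term, which likewise rest on 2 short intact females, were −0.30 for Slc18a3, −0.10 for Chat, −0.06 for Slc5a7 and −0.15 for Ache. Members at an unadjusted p under 0.05 went from 5 to 1 with the class as a term, against 7.14% of all genes, and to 0 in short libraries alone, against 6.24%, with 0 called in either. The part of the fragment class in the other values was not tested beyond these fits.

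**Figure D3:**
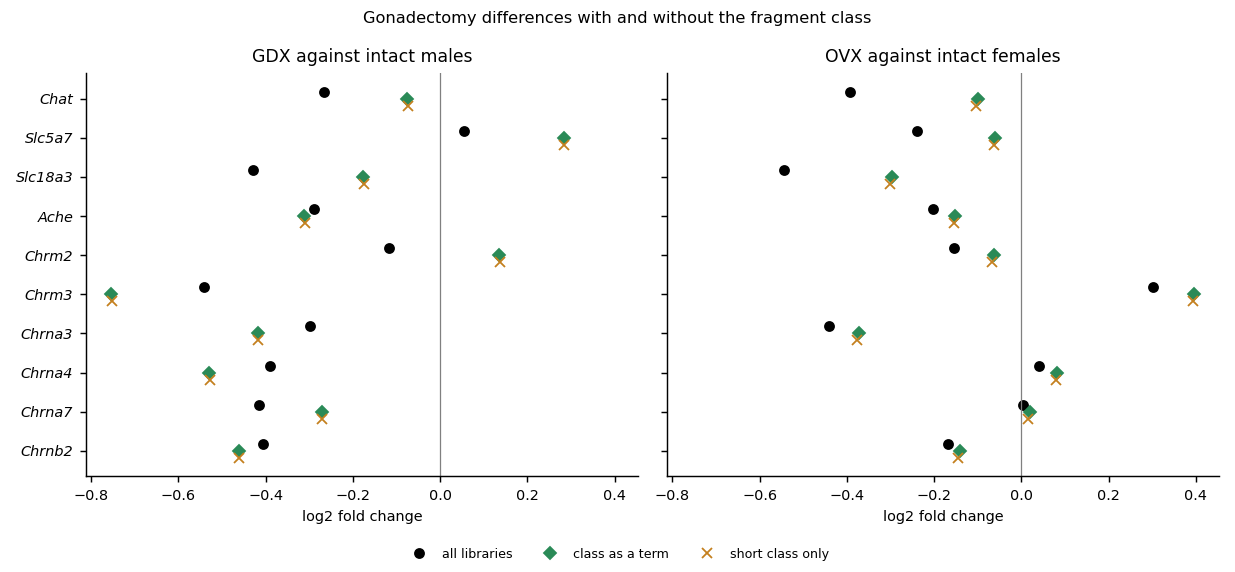
Log2 fold change of each member (horizontal axis) in GDX males and in OVX females from all libraries, with the fragment class as a term, and in short libraries only. Slc18a3 in GDX males moves from −0.43 to −0.18 with the class as a term, and Chrnb2 from −0.41 to −0.46.

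Across the 22 libraries, the genes most like Chat were sought by Pearson's r of log2 CPM among 14283 genes with a mean of at least 1 CPM. Slc18a3 was the member nearest to it, at r = 0.908 and rank 6, and Ache followed at r = 0.807 and rank 63. Chrm2 (0.617), Slc5a7 (0.564), Chrna7 (0.556) and Chrnb2 (0.480) were further down, and Chrna3 (0.188), Chrna4 (0.151) and Chrm3 (−0.144) were the lowest of the members. Several of these values depended on the set of rats. Chrm2 had an r of 0.00133 in the 7 long libraries, and in the 11 gonadectomised rats one of 0.473, or −0.201 without OVX females 4 and 5. Chrna7 was at −0.147 in the long libraries, and Ache at 0.491 in the 11 intact rats, or 0.157 without intact females 1 and 3. In the 7 long libraries r was −0.701 for Chrna4, or 0.0167 without intact female 6 and intact male 1, and −0.586 for Chrm3, or −0.355 without the same 2 rats. In the 11 intact rats it was −0.477 for Chrna4, or −0.795 without intact females 1 and 3, and −0.339 for Chrm3, or −0.709 without them. The 5 genes above them outside the list were Dysf (0.946), Susd2 (0.936), AC141959.1 (0.916), AABR07069219.1 (0.916) and Acly (0.911), the last of which makes cytosolic acetyl-CoA. After each gene was centred within its 4 groups, the first 5 were Dysf (0.920), Susd2 (0.910), AABR07069219.1 (0.910), AC141959.1 (0.893) and Vwa7 (0.871), and Slc18a3 stood at 0.869. Of the other members, Ache was then at 0.752, Chrna7 at 0.580, Slc5a7 at 0.537, Chrm2 at 0.534, Chrnb2 at 0.204, Chrna4 at −0.0186, Chrna3 at −0.141 and Chrm3 at −0.209. These values describe libraries that share depth, fragment class and tissue content, and carry no test.

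Between Chat and Slc18a3, r was 0.867 in the 15 short libraries and 0.641 in the 7 long ones, with a Spearman rho of 0.901 over all 22 and r = 0.886 without OVX female 5 and intact female 3, the farthest from the Chat median. Between Chat and Slc5a7, r was 0.808 in the 11 intact rats, which hold both fragment classes, and 0.266 in the 11 gonadectomised rats, which are all short, or −0.175 without OVX females 4 and 5. By class it was 0.256 in the 15 short libraries, or −0.102 without OVX females 4 and 5, and 0.606 in the 7 long ones. The difference between these values was not tested, and group and class cannot be told apart in it. Slc5a7 and Chrm2 had an r of 0.809 with each other over the 22 libraries, and Chrna4 and Chrnb2 one of 0.728.

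**Figure D4:**
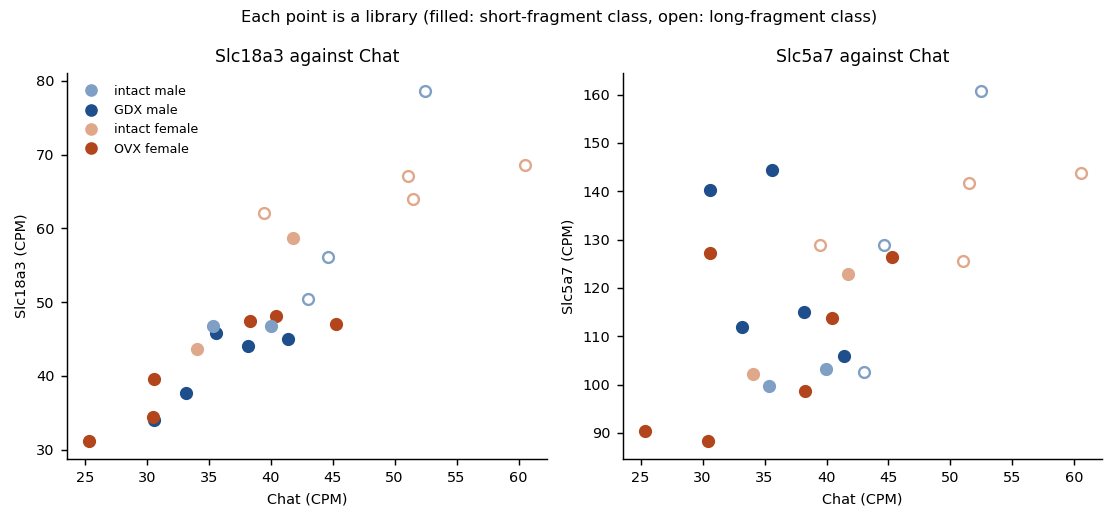
Level of Slc18a3 and of Slc5a7 (vertical axes, CPM) against that of Chat (horizontal axes, CPM) in each of the 22 libraries, coloured by group, with filled points for short and open points for long libraries. Slc18a3 is higher where Chat is higher (r = 0.908 on the log2 scale), and Slc5a7 is so less closely (r = 0.564).

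Other cholinergic genes were taken from a list of 33, of which 32 are in the table and 18 were tested in males. In GDX males 1 of 18 rose and 2 of 18 fell (edgeR), where 6.78% of all genes were called higher and 6.58% lower. DESeq2 called the same 3, against 13.8% of all genes. The median log2 fold change of the 18 was −0.06. Lynx1, a membrane-anchored protein that damps nicotinic receptors, had 205 to 229.5 CPM in intact males and 157 to 189 CPM in GDX males. It fell by 0.30 on the log2 scale (SE 0.05; adjusted p = 0.00611). Colq, the collagen tail that anchors acetylcholinesterase, fell by 0.79 (SE 0.27; adjusted p = 0.0874) at 16 to 48 counts per library. Chrnb3, a nicotinic subunit, was low, with 3 to 12 counts in intact males and 15 to 65 in GDX males, and rose by 2.07 (SE 0.42; adjusted p = 0.0102). Chrnb3 was also lower in intact males than in intact females, with a log2 difference of −1.61 (SE 0.41; adjusted p = 0.0520), and their mean of 0.568 CPM was the lowest of the 4 groups. With as few as 3 counts, Chrnb3 could not pass the filter on low counts through intact males alone. Its fold and p in both comparisons therefore depend on the group where it was higher, and no conclusion is drawn from them.

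In OVX females 0 of 18 genes of that list passed (edgeR), against 0.0335% of all genes. There were 4 at an unadjusted p under 0.05, against 10.2% of all genes, and the median was −0.08. DESeq2 called 1 gene of the list, against 1.20% of all genes. By fragment class 0 of 18 passed with edgeR and with DESeq2, against 0.00669% and 0.373% of all genes. There were 4 at an unadjusted p under 0.05, against 7.71% of all genes. Slc44a1, a choline transporter of most cells, was the most abundant gene of the list at 262 CPM. Chrna9 and Chrnd were at 0 in all libraries, and Slc22a2, Chrm1, Chrna6, Chrna10 and Chrne were among those at 0 in at least 1.

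Motor neuron markers were described beside the cholinergic genes, with a list of 12, of which 11 were tested. In GDX males 10 were lower and 2 were called (edgeR), where 13.4% of all genes were called: Esrrg, a nuclear receptor of gamma motor neurons, at −0.33 (SE 0.07; adjusted p = 0.0104), and Nefh, the heavy neurofilament, at −0.29 (SE 0.10; adjusted p = 0.0825). Their median was −0.23 in GDX males and −0.28 in OVX females. In OVX females 10 were lower and 0 were called by edgeR, against 0.0335% of all genes. There were 6 at an unadjusted p under 0.05, against 10.2% of all genes, and 1 call by DESeq2, Nefl, against 1.20%. DESeq2 called Esrrg alone in GDX males, where it called 13.8% of all genes. In intact males against intact females, 10 of the 11 were lower, with a median of −0.09. Esrrg was the 1 higher, by 0.26 (SE 0.05; edgeR, adjusted p = 0.0161), and the 1 called, where 4.01% of all genes were called. Among intact rats 11 of 11 were higher in long libraries, with a median of 0.41, and 0 were called by edgeR or DESeq2. There were 9 at an unadjusted p under 0.05, against 7.71% of all genes. By fragment class edgeR called 0.00669% and DESeq2 0.373% of all genes. The sum of the motor neuron list, led by Nefm, was 16012 ± 3086 CPM in intact and 13403 ± 1054 CPM in GDX males (SD, n = 5 each), and 16462 ± 1912 CPM in intact and 13416 ± 1570.1 CPM in OVX females (SD, n = 6 each). Nefh, Nefm and Nefl made up 95.8% to 97.2% of the sum in each library, the 2 short intact males had 13723 ± 455 CPM (SD), and intact male 6 had the highest sum of the 22 rats, 21166 CPM. The list of 6 genes of all neurons summed to 1567 ± 95.6 CPM in intact males and 1399 ± 57.9 CPM in GDX males (SD, n = 5 each). Of the 6, 2 were called lower (edgeR), Rbfox3 and Snap25, where 6.58% of all genes were called lower. The part of neuron content in the member differences was not tested.

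Marker lists of other tissue were summed in the same way. The meninges and fibroblast list, with 6 of 7 genes in the table and led by Col1a1, summed to 169, 110.2, 118, 74.4 and 55.8 CPM in intact males 1, 2, 3, 5 and 6 and to 145, 256, 374, 465 and 396 CPM in GDX males 1, 2, 4, 5 and 6. GDX males 4, 5 and 6 had the highest sums of the males, and GDX male 1 lay within the intact range. All 5 of the list's tested genes were called higher in GDX males, with a median of 1.60, where 6.78% of all genes were called higher. The same 5 were lower in intact males than in intact females, with a median of −1.23 and 3 called (edgeR), where 2.56% of all genes were called lower. With the log2 sum of this list as a term, a setting chosen after the data were seen, 0 of 10 members were called in males (edgeR) and 0 were at an unadjusted p under 0.05. Over all genes the shares were 0.0469% (7 genes) and 6.82%, so that 0 of 10 is near the background. The estimates were Ache at −0.04, Slc18a3 at −0.05, Chrnb2 at −0.18, Chrna4 at −0.17 and Chrna7 at −0.26. Chat and Chrm2 turned to 0.03 and 0.01. In females the same term gave 1 call, Slc18a3, against 0.0738% of all genes (11 genes), with 5 members at an unadjusted p under 0.05, against 9.47%.

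The endothelial list, led by Flt1 and without Pecam1, which is not in the table, summed to 82.1 ± 11.4 CPM in intact males and 126 ± 17.0 CPM in GDX males (SD, n = 5 each), with 4 of 4 tested genes called higher, against the same 6.78% of all genes as for the lists that follow. The erythroid list, led by Hba-a2 and without Hba-a1, which is not in the table, summed to 8.62 ± 3.79 and 27.3 ± 18.8 CPM with 2 of 2 called higher. Astrocyte genes, led by Gfap, summed to 5338 ± 240.2 and 6475 ± 352 CPM, with 2 of 5 called higher. Oligodendrocyte genes, led by Mbp, summed to 22545 and 24499.8 CPM with 1 of 5 called higher. Microglial genes, led by Csf1r, summed to 132 and 144 CPM, with 0 of 5 called by edgeR. There was 1 at an unadjusted p under 0.05, against 23.8% of all genes, and 1 called by DESeq2, against 13.8%. Dorsal horn genes, led by Trpc5, summed to 34.4 and 32.8 CPM, with 0 of 5 tested genes called by edgeR or DESeq2, against 13.4% and 13.8% of all genes. There was 1 at an unadjusted p under 0.05, against the same 23.8% of all genes. In OVX females edgeR called 0.0335% and DESeq2 1.20% of all genes, here and for the lists that follow. An unadjusted p under 0.05 was found for 10.2% of all genes. The meninges and fibroblast sum was 326 ± 65.2 CPM in OVX females, against 261 ± 120.4 CPM in intact females (SD, n = 6 each). Of its 6 genes, 0 were called by edgeR or DESeq2 and 0 were at an unadjusted p under 0.05. The endothelial sum was 141 ± 19.3 CPM in OVX and 101 ± 26.4 CPM in intact females, with 0 of 4 called by edgeR or DESeq2 and 4 at an unadjusted p under 0.05, against 10.2% of all genes. The erythroid sum was 21.4 ± 4.53 CPM in OVX and 11.6 ± 5.09 CPM in intact females, with 0 of 3 called by edgeR. All 3 were at an unadjusted p under 0.05, against 10.2% of all genes, and DESeq2 called Hbb, against 1.20%. Genes of all neurons summed to 1394 ± 95.6 and 1522 ± 50.9 CPM, with 0 of 6 called by edgeR. Of these, 3 were at an unadjusted p under 0.05, against 10.2% of all genes. DESeq2 called Stmn2 and Tubb3, against 1.20% of all genes. Astrocyte genes summed to 6095 ± 328 and 5578 ± 511 CPM, with 0 of 5 called by edgeR or DESeq2. Of these, 2 were at an unadjusted p under 0.05, against the same 10.2% of all genes. The part of this other tissue in the male results was not tested beyond the fit with the meninges term.

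**Figure D5:**
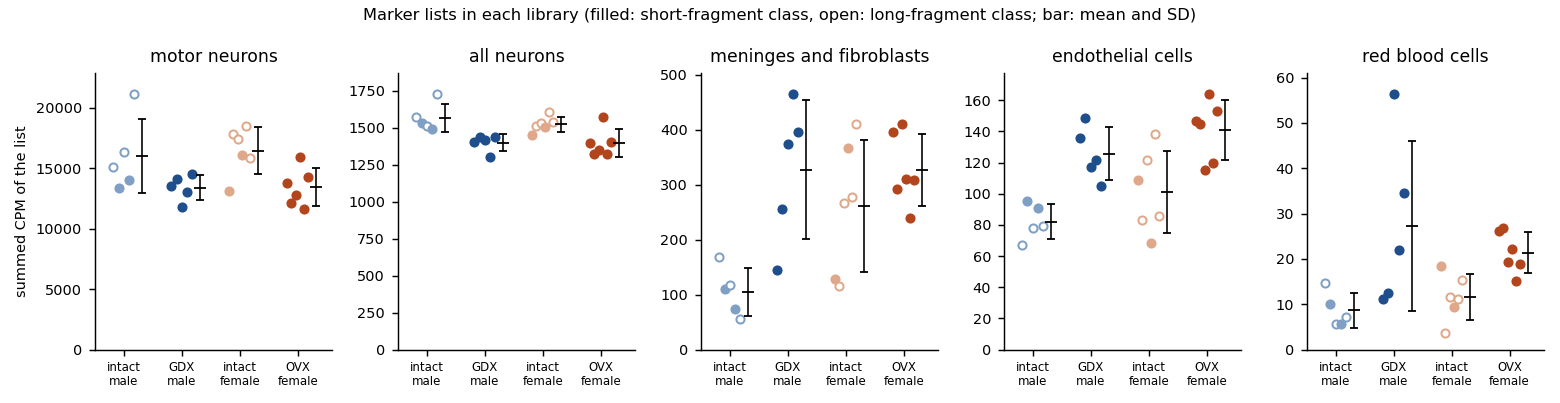
Summed level (CPM, vertical axis, from 0) of 5 lists of marker genes in each of the 22 rats by group, with the group mean and SD. The meninges and fibroblast sum averages 105 CPM in intact males and 327 CPM in GDX males, and the motor neuron sum 16012 and 13403 CPM. Neurofilament genes make up 95.8% to 97.2% of the motor neuron sum in each library, so it mostly describes these genes.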

How the data were processed

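RNA was sequenced from the ventral cervical spinal cord of 22 rats. The values used are the read counts per gene that the authors deposited, not normalized, made on Rnor_6.0. The paper names Trimmomatic, Hisat2, featureCounts and a SMARTer kit, while the submitters' notes name TopHat2 2.0.13 and TruSeq, so the aligner and the kit are not settled. Fragment class and RNA integrity (RIN) came from the paper's tables. Reads carry no molecular identifiers, and p describes the spread between rats.

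Tests ran in edgeR 4.0.16 under R 4.3.3 (filterByExpr, TMM, glmQLFit, glmQLFTest), with Benjamini-Hochberg adjustment over all genes tested and calls at an adjusted p under 0.1. The SE is the log2 fold change divided by the root of the F statistic. Log2 CPM had a prior count of 2. The pipeline was tested on simulated data. The members and lists were chosen with earlier results of these data known. Named were the 10 members, each called gene of the cholinergic and motor neuron lists and the 5 genes most like Chat. Genes of the other lists are named as most abundant, at 0 or called. Results that need some genes of these lists are not reported here. Motifs, promoters and gene positions came from RefSeq tables. The alternatives were DESeq2 1.42.0, edgeR's likelihood ratio test, RLE factors, no filter, adjusted p under 0.05, RIN or fragment class as a term, short libraries only, the rat number as a block, each rat left out, and, chosen after seeing the data, shared rat numbers without the block and the meninges sum as a term.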

Additional observations from a re-analysis of the deposited data

Results flagged for a closer look

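Chrm3 in OVX female 5 stood apart from the rest of its group, at 5.85 CPM against 3.67 to 4.41 CPM in the other OVX females. It was found by searching the highest and lowest rat in 40 groups of member values, of which chance gives about 1 in 20. Without this rat the Chrm3 difference between OVX and intact females was 0.20, against 0.30 with it.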

How the results depend on the processing

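The number of members called in GDX males, 5, was 6 with DESeq2, the likelihood ratio test and no filter and 5 with RLE factors. It was 3 at an adjusted p under 0.05, 3 with RIN as a term, 2 with the fragment class as a term, 0 in short libraries only (7 libraries) and 0 with the meninges sum as a term. With the rat number as a block over shared numbers it was 3, against 2 without the block (8 libraries each). The share of all genes called, 13.4%, shifted as well, to 13.8% with DESeq2, 13.3% with the likelihood ratio test, 7.48% with no filter, 8.47% at the stricter level, 8.45% with RIN, 5.33% with the class, 2.83% in short libraries, 0.0469% with the meninges sum, and 8.56% with and 9.70% without the block. The numbers were not shown to pair the rats. Correlations between rats of 1 number ran from −0.114 to 0.0626, within and between the sexes, and low correlations do not exclude a pairing. Leaving out each rat gave 2 to 6, with 2 without GDX male 4 or GDX male 5 and 3 without intact male 1. In OVX females, 0 became 2 with DESeq2 and 1 with the likelihood ratio test, no filter, RIN as a term or the meninges sum as a term, where the share of all genes went from 0.0335% to 1.20%, 0.671%, 0.0465%, 0.0738% and 0.0738%, and 0 to 1 with each rat left out, 1 being Slc18a3 without intact female 1 or OVX female 4. For fragment class, 0 became 2 with DESeq2 (0.373% of all genes) and 4 with no filter (0.891%, against 0.00669%), and stayed 0 with each rat left out. Counts for intact males against intact females, GDX males against OVX females and the difference of responses were 0 under each alternative run. The shares of all genes ran from 0.225% to 5.25%, from 0.154% to 0.838% and from 0% to 1.75% in these comparisons. No called value changed sign. Of the members' log2 fold changes, 163 of 210 in GDX males and 214 of 230 in OVX females kept direction and side of the level, and 33 in GDX males lost their call. GDX males against OVX females could not be fitted with the fragment class, since all their libraries are short. The causes were not tested. Chrm3 and Chrna3 had counts of under 100 in each library, and each group held 5 or 6 rats.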
